A study of Mus musculus with 11 samples.

Results

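Mitosis and spindle genes are 45 genes that dividing cells switch on late in the cell cycle, and 43 of them had a row among the 24914 rows of each count file. Kif15 and Kif20a were not analysed here. The members were taken by gene symbol, from a list drawn up with earlier results of these data known. Messenger RNA of whole kidneys was sequenced from 129X1/SvJ mice at 5.5 weeks of age in the Col4a3 model of Alport syndrome, an inherited disease of the glomerular basement membrane. The 11 libraries form 3 groups. HET PBS (n = 3) holds Col4a3+/- mice treated with PBS. KO PBS (n = 4) holds Col4a3-/- mice treated likewise, and KO antimiR-21 (n = 4) holds Col4a3-/- mice that received an oligonucleotide against miR-21. Every group shares the strain and the age, the knockout is of the whole animal, no wild-type kidneys and no Col4a3+/- kidneys given antimiR-21 were analysed here, and the labels give no dose, no hour of collection and no sex. The labels do not say whether replicates are separate animals, so p-values measure the spread between these samples.

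Cells enter mitosis when cyclin B binds the kinase Cdk1 and the phosphatase Cdc25c removes the phosphates that Wee1 places on Cdk1. Spindle microtubules then attach to kinetochores built on centromeric chromatin, the spindle checkpoint holds the anaphase promoting complex back until every chromosome is attached, and cytokinesis divides the cell. The transcription factors B-Myb and Foxm1, with the MuvB complex, switch these genes on together in G2 and mitosis, and the DREAM complex represses them in resting cells, through a promoter element called the CHR that often lies near a CCAAT box. Most cells of a kidney past its growth phase are resting, and these genes are expressed in the few that divide. In whole tissue a smaller number of dividing cells and less RNA per dividing cell cannot be told apart.

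All 43 loci passed the filter on low counts. Of these, 37 were counted on a locus of their own. The other 6 had the same count as a neighbouring gene throughout, their reads belong to either gene, and they are written with a slash (Ccna2/Exosc9, Aurka/Fam210b, Foxm1/Rhno1, Cdc20/Elovl1, Kif4/Pdzd11 and Nusap1/Oip5). After such rows were joined, the libraries held 17.9 to 39.7 M counts each. Levels are given as CPM, counts relative to the scaled library size. Per kilobase of exon, the mean level over the 11 libraries ran from 0.299 CPM per kb for Cdc25c to 24.0 for Kif23 among the 37 loci. Kif23 (24.0 CPM per kb), Cks2 (20.2) and Spc25 (14.4) stood above the rest, which reached 8.16 for Ccnb2. Whole kidney markers fitted the tissue label, since 9 proximal tubule loci summed to 12910 to 17930 CPM in every library.

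The levels of nearly all members were lower in KO antimiR-21 than in KO PBS. Of 43 loci 42 had a negative log2 difference, with a median of -1.06 over the members and 0.0038 over all 14380 loci tested. Mki67, the usual marker of proliferation, was 2.29-fold lower and Ccnb1, which encodes the mitotic cyclin B1, 3.08-fold. In 29 member loci every KO antimiR-21 library lay below every KO PBS library, which was true of 1.95% of all loci tested, while 0 members lay above, beside 2.34%. None passed the test with adjustment over all loci (edgeR quasi-likelihood test, Benjamini-Hochberg, lowest member adjusted p = 0.326), where 0.0% of all loci were called lower and 0.0% higher. At an unadjusted p under 0.05, 37 members were lower and 0 higher, beside 3.46% of all loci lower and 4.76% higher. DESeq2, run as an alternative, called 12 members lower, beside 0.327% of all loci called lower by it, and limma-voom called 0. Those 12 were Ccnb1, Ccnb2, Cdca3, Plk1, Foxm1/Rhno1, Bub1b, Cenpa, Ndc80, Hmmr, Ect2, Anln and Racgap1, with DESeq2 adjusted p from 0.0108 to 0.0402.

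**Figure D1:**
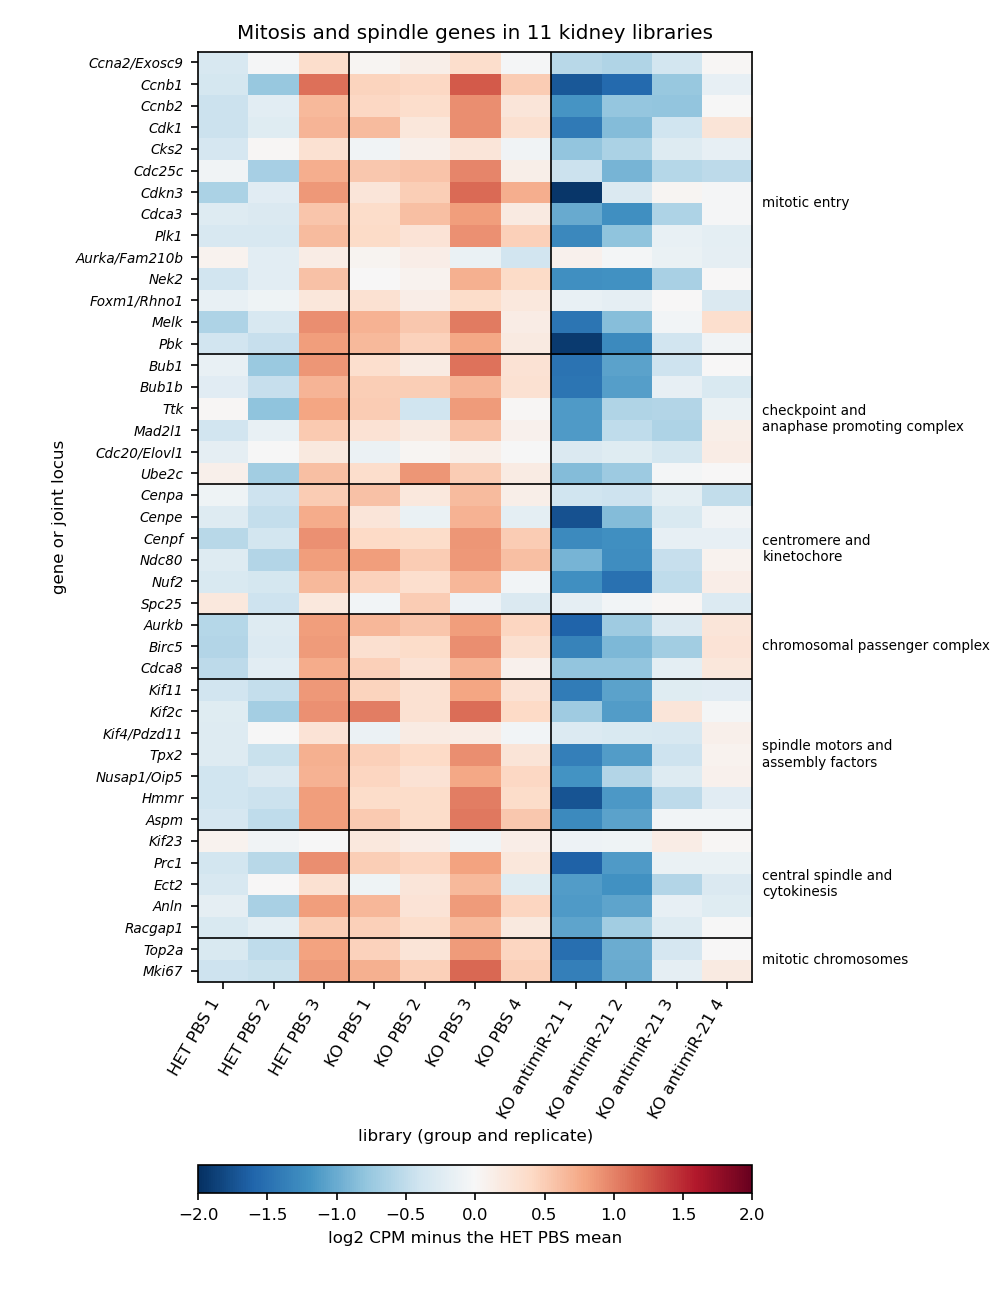
Heat map of the 43 member loci (rows, grouped by role) in the 11 libraries (columns, by group and replicate), coloured by log2 CPM, after adding 0.1 CPM, minus the mean of the 3 HET PBS libraries. KO PBS replicate 3 was the highest of the 11 libraries in 30 loci and KO antimiR-21 replicate 1 the lowest in 29, and HET PBS replicate 3 stands above the other HET PBS libraries.

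Of the 14 loci of mitotic entry 13 were lower at an unadjusted p under 0.05 in KO antimiR-21 against KO PBS, with a median log2 difference of -1.06. Ccnb1, on chromosome 13 from 100778650 to 100786570 (GRCm38), encodes the partner that activates Cdk1. It stood at 4.21, 3.16 and 11.6 CPM in HET PBS, 7.34, 7.21, 12.7 and 7.69 CPM in KO PBS and 1.58, 1.77, 3.14 and 4.82 CPM in KO antimiR-21. Each KO antimiR-21 library lay below each KO PBS library, and the mean was 3.08-fold lower (log2 difference -1.62, SE 0.458, edgeR adjusted p = 0.358). Cdk1, the kinase itself, stood at 8.24, 9.39 and 18.04 CPM in HET PBS, 17.4, 13.1, 21.5 and 14.1 CPM in KO PBS and 4.15, 6.08, 8.44 and 13.3 CPM in KO antimiR-21. Replicate 4 of KO antimiR-21 reached the low end of KO PBS for Cdk1, so the groups overlapped (log2 difference -1.05, SE 0.351, edgeR adjusted p = 0.458). Cdca3, known from frog and human cells to take part in the degradation of Wee1 at mitotic entry, had the smallest p of all members. It stood at 9.79, 9.61 and 17.2 CPM in HET PBS, 15.2, 17.8, 21.1 and 13.3 CPM in KO PBS and 5.79, 4.97, 7.66 and 11.5 CPM in KO antimiR-21, with no overlap between the knockout groups (log2 difference -1.17, SE 0.279, edgeR adjusted p = 0.326). The joint locus of Foxm1 held 27.8, 29.3 and 36.4 CPM in HET PBS, 38.2, 34.0, 40 and 35.8 CPM in KO PBS and 27.8, 27.2, 30.9 and 25.4 CPM in KO antimiR-21. Its difference was smaller in size, and so was its spread (-0.41, SE 0.103, edgeR adjusted p = 0.334). Ccna2/Exosc9, which holds the reads of cyclin A2 and of an exosome subunit, stood at 35.3, 43.4 and 56.3 CPM in HET PBS, 45.5, 48.1, 56.6 and 43.4 CPM in KO PBS and 30.01, 29.0, 34.2 and 44.7 CPM in KO antimiR-21 (log2 difference -0.49, SE 0.166, edgeR adjusted p = 0.458). The knockout groups overlapped there through replicate 4 of each. Among the other entry genes, log2 differences ran from -1.28 for Pbk, a mitotic kinase, and -1.27 for Cdc25c, through -1.14 for Ccnb2 (cyclin B2), -1.10 for the phosphatase Cdkn3, -1.08 for the kinase Plk1, -1.01 for the kinase Melk and -0.996 for the centrosomal kinase Nek2, to -0.49 for Cks2, a Cdk1-binding subunit. The Aurka/Fam210b locus, which includes the spindle pole kinase Aurora A, stood at 0.0035 (SE 0.122).

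Of the 2 loci of mitotic chromosomes both were lower at an unadjusted p under 0.05 (median -1.16). Mki67, on chromosome 7 from 135689784 to 135716361 (GRCm38), encodes the Ki-67 protein that coats mitotic chromosomes. It stood at 20.3, 19.9 and 48.8 CPM in HET PBS, 44.2, 37.5, 60.3 and 37.5 CPM in KO PBS and 10.4, 13.4, 23.9 and 30.6 CPM in KO antimiR-21. All KO antimiR-21 libraries were below all KO PBS libraries, and HET PBS replicate 3 lay among the latter (log2 difference -1.20, SE 0.387, edgeR adjusted p = 0.438). Top2a, the topoisomerase that untangles sister chromatids, stood at 28.8, 24.8 and 61.9 CPM in HET PBS, 48.9, 42.3, 64.0 and 47.7 CPM in KO PBS and 12.3, 17.7, 28.0 and 35.4 CPM in KO antimiR-21. Here too the knockout groups did not overlap, and the mean was 2.17-fold lower in KO antimiR-21 (log2 difference -1.12, SE 0.358, edgeR adjusted p = 0.431).

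**Figure D2:**
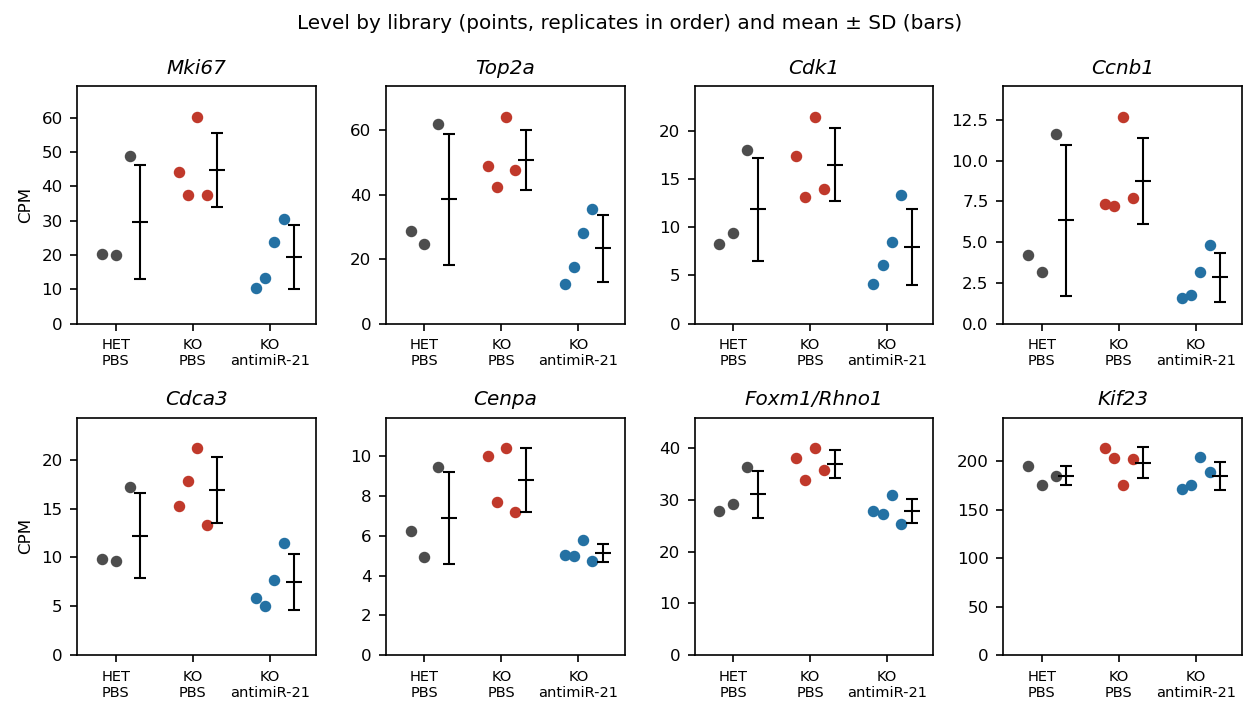
CPM of 8 member loci in each library (points, in replicate order within a group) with the mean and SD of the group (bars), on axes that start at 0. Mki67, Top2a, Ccnb1, Cdca3, Cenpa and Foxm1/Rhno1 were lower in every KO antimiR-21 library than in every KO PBS library, Cdk1 overlapped, and Kif23 stood between 172 and 213 CPM throughout.

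Of the 6 loci of the spindle checkpoint and the anaphase promoting complex, 5 were lower at an unadjusted p under 0.05 (median log2 difference -0.89). Bub1b encodes the checkpoint protein BubR1, and it stood at 5.54, 4.72 and 10.5 CPM in HET PBS, 9.18, 9.17, 10.5 and 8.04 CPM in KO PBS and 2.30, 2.98, 5.79 and 5.25 CPM in KO antimiR-21. The knockout groups did not overlap (log2 difference -1.17, SE 0.315, edgeR adjusted p = 0.334). Ube2c, the ubiquitin-conjugating enzyme that works with the complex, stood at 9.10, 5.21 and 12.9 CPM in HET PBS, 10.9, 15.7, 12.2 and 9.51 CPM in KO PBS and 4.59, 5.08, 8.30 and 8.56 CPM in KO antimiR-21, again without overlap (log2 difference -0.86, SE 0.293, edgeR adjusted p = 0.458). The Cdc20/Elovl1 locus, which holds the reads of the activator Cdc20 and of a fatty acid elongase, stood at 118, 133 and 153 CPM in HET PBS, 123, 138, 144 and 133 CPM in KO PBS and 109, 113, 105 and 148 CPM in KO antimiR-21. Its groups overlapped (log2 difference -0.18, SE 0.118, edgeR adjusted p = 0.762). The checkpoint kinases Bub1 and Ttk had log2 differences of -1.17 and -0.92, and Mad2l1, which encodes the checkpoint protein Mad2, had -0.76.

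At the centromere and kinetochore 4 of 6 loci were lower at an unadjusted p under 0.05 (median -0.92). Cenpa encodes the histone H3 variant that marks centromeres, and it stood at 6.27, 4.94 and 9.46 CPM in HET PBS, 10.01, 7.71, 10.4 and 7.18 CPM in KO PBS and 5.03, 4.97, 5.79 and 4.71 CPM in KO antimiR-21. The KO antimiR-21 libraries lay close together and below all of KO PBS (log2 difference -0.78, SE 0.208, edgeR adjusted p = 0.334). Ndc80, the kinetochore subunit that grips microtubules, stood at 2.83, 2.25 and 6.18 CPM in HET PBS, 6.15, 4.91, 6.30 and 5.24 CPM in KO PBS and 1.75, 1.38, 2.45 and 3.59 CPM in KO antimiR-21, without overlap of the knockout groups (log2 difference -1.30, SE 0.348, edgeR adjusted p = 0.334). Its partner in the same complex, Nuf2, had -1.02, and the large kinetochore proteins Cenpf and Cenpe had -1.17 and -0.82. Spc25, a further subunit of the Ndc80 complex, had a smaller difference. It stood at 53.7, 34.8 and 53.5 CPM in HET PBS, 44.8, 66.0, 43.2 and 38.1 CPM in KO PBS and 41.0, 44.6, 47.2 and 38.4 CPM in KO antimiR-21, and the 3 groups overlapped (log2 difference -0.16, SE 0.180, edgeR adjusted p = 0.874).

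All 3 loci of the chromosomal passenger complex, which corrects faulty attachments and then directs cytokinesis, were lower at an unadjusted p under 0.05 (median -1.06). Aurkb, its kinase Aurora B, stood at 3.65, 4.56 and 9.87 CPM in HET PBS, 8.72, 8.12, 9.87 and 7.45 CPM in KO PBS and 1.75, 3.31, 4.47 and 6.53 CPM in KO antimiR-21, without overlap of the knockout groups (log2 difference -1.09, SE 0.379, edgeR adjusted p = 0.471). Birc5, which encodes its subunit survivin, stood at 4.29, 5.35 and 11.7 CPM in HET PBS, 8.08, 8.42, 12.5 and 8.11 CPM in KO PBS and 2.51, 3.43, 3.98 and 7.81 CPM in KO antimiR-21. The nearest libraries of the knockout groups were replicate 4 of KO antimiR-21 and replicate 1 of KO PBS (log2 difference -1.06, SE 0.381, edgeR adjusted p = 0.491). Cdca8, which encodes its subunit borealin, stood at 4.98, 6.23 and 12.2 CPM in HET PBS, 10.1, 8.82, 11.8 and 7.69 CPM in KO PBS and 4.15, 4.14, 6.28 and 8.46 CPM in KO antimiR-21, and here those groups overlapped (log2 difference -0.74, SE 0.306, edgeR adjusted p = 0.558).

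Of the spindle motors and assembly factors 6 of 7 loci were lower at an unadjusted p under 0.05, and the same number did not overlap between the knockout groups (median -1.12). Hmmr, a spindle assembly factor, stood at 7.85, 7.66 and 18.6 CPM in HET PBS, 13.4, 13.4, 21.1 and 13.4 CPM in KO PBS and 3.06, 4.64, 7.17 and 8.88 CPM in KO antimiR-21, 2.58-fold lower in the mean (log2 difference -1.37, SE 0.367, edgeR adjusted p = 0.334). Tpx2, the activator of Aurora A at spindle poles, stood at 9.53, 8.399 and 18.8 CPM in HET PBS, 16.1, 15.2, 21.9 and 13.7 CPM in KO PBS and 4.37, 5.25, 8.54 and 11.99 CPM in KO antimiR-21 (log2 difference -1.15, SE 0.339, edgeR adjusted p = 0.384). In both genes the KO antimiR-21 replicates 1 and 2 were the lowest of the 11 libraries. The locus with a different pattern was Kif4/Pdzd11, which includes a chromosome-bound kinesin, at 42.5, 50.8 and 61.3 CPM in HET PBS, 47.2, 56.9, 56.6 and 49.1 CPM in KO PBS and 42.0, 41.3, 40.8 and 54.9 CPM in KO antimiR-21 (log2 difference -0.23, SE 0.131, edgeR adjusted p = 0.721). Its KO antimiR-21 replicate 4 stood among KO PBS. Kif11, the motor that separates the spindle poles, had a log2 difference of -1.12, the microtubule depolymerase Kif2c -1.08, the spindle pole protein Aspm -1.17 and the joint locus of the microtubule binder Nusap1 -0.90.

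In the central spindle and cytokinesis 4 of 5 loci were lower at an unadjusted p under 0.05 (median -0.93). Ect2, the exchange factor that activates RhoA at the cleavage furrow, stood at 19.0, 23.7 and 29.1 CPM in HET PBS, 22.3, 28.0, 37.0 and 19.8 CPM in KO PBS and 10.8, 10.2, 15.6 and 19.4 CPM in KO antimiR-21. The highest KO antimiR-21 library lay just under the lowest of KO PBS (log2 difference -0.93, SE 0.246, edgeR adjusted p = 0.334). Racgap1, a subunit of centralspindlin that recruits Ect2, stood at 11.97, 12.8 and 20.8 CPM in HET PBS, 20.6, 18.8, 23.0 and 16.9 CPM in KO PBS and 7.05, 9.06, 12.3 and 14.7 CPM in KO antimiR-21, without overlap (log2 difference -0.88, SE 0.235, edgeR adjusted p = 0.334). Kif23, the kinesin of the same centralspindlin complex, stood at 195, 176 and 184.7 CPM in HET PBS, 213, 203, 176 and 202 CPM in KO PBS and 172, 175, 204 and 189 CPM in KO antimiR-21, and all groups overlapped (log2 difference -0.10, SE 0.0852, edgeR adjusted p = 0.808). The difference between Kif23 and Racgap1, which are partners in that complex, was not tested. Kif23 lies on chromosome 9 from 61915905 to 61946774 and Spc25 on chromosome 2 from 69193895 to 69206194 (GRCm38). No protein-coding gene overlaps either in GENCODE vM21, and the annotation used for the counting is not given in the sources used here. Prc1, the microtubule bundler of the central spindle, had -1.13, and Anln, the furrow scaffold anillin, had -1.16.

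**Figure D3:**
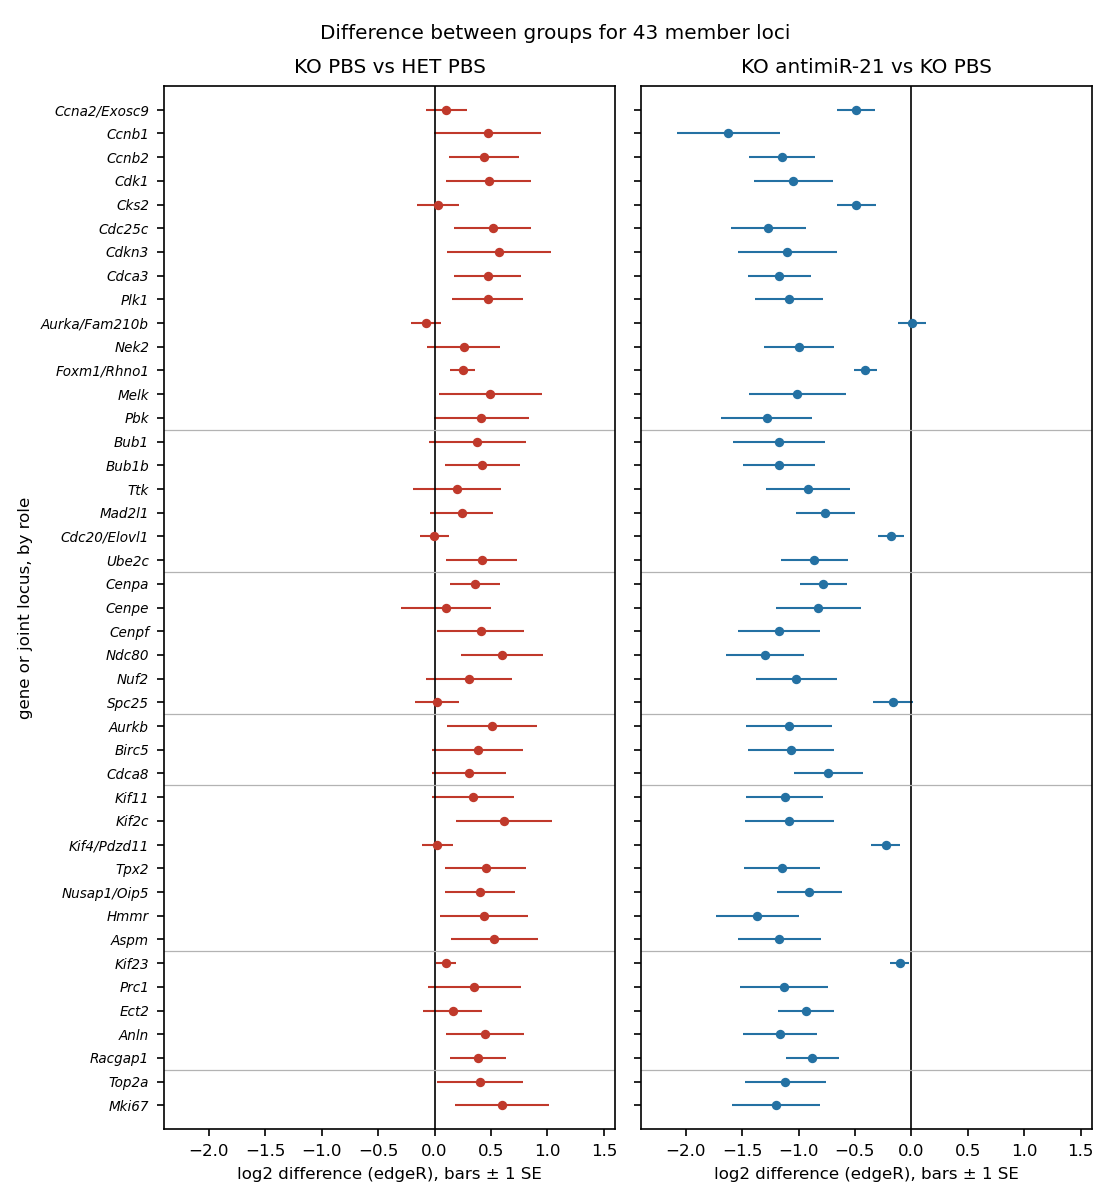
Log2 difference of each of the 43 member loci (points) between KO PBS and HET PBS (left) and between KO antimiR-21 and KO PBS (right). Bars are ± 1 SE, taken from the F statistic of the edgeR test, and lines divide the roles. Both panels use the KO PBS libraries, so they are not independent. On the left the median was 0.40, and on the right -1.06, with Aurka/Fam210b, Cdc20/Elovl1, Spc25, Kif4/Pdzd11 and Kif23 near 0.

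The 6 loci that were not lower at an unadjusted p under 0.05 were Aurka/Fam210b, Cdc20/Elovl1, Kif4/Pdzd11, Spc25, Kif23 and Cenpe, the last with an unadjusted p of 0.0519 (edgeR). Among the 37 members on a locus of their own 34 were lower by that count (median -1.09) and 27 did not overlap. Among the 6 joint loci it was 3 and 2 (median -0.32).

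The untreated knockout was then set against the heterozygotes. Between KO PBS and HET PBS the difference was positive in 41 of 43 loci, with a median of 0.40 and one of -0.015 over all loci. No member passed at an adjusted p under 0.05 (edgeR), and in that comparison 0.0% of all loci were called higher. At an unadjusted p under 0.05 only Foxm1/Rhno1 was higher (log2 difference 0.25, unadjusted p = 0.0451), beside 4.21% of all loci, and 0 members separated the groups, beside 3.55% of all loci higher and 3.21% lower in this way. The size of this difference depended on single libraries. HET PBS replicate 3 was above both other HET PBS libraries in 41 of 43 loci, within the KO PBS range in 33 and above it in 10. HET PBS replicates 1 and 2 were both below every KO PBS library in 34 loci. Such counts by replicate were taken for the members only and not over all loci. Without HET PBS replicate 3 the median difference was 0.86 and 30 members were higher at an unadjusted p under 0.05, beside 4.22% of all loci. The median was 0.18 without HET PBS replicate 2, 0.22 without HET PBS replicate 1 and 0.26 without KO PBS replicate 3.

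KO antimiR-21 against HET PBS gave a negative difference in all 43 loci, with a median of -0.64 and one of -0.0024 over all loci. By edgeR 0 members passed at an adjusted p under 0.05, with 0.0% of all loci called lower and 0.00695% higher. At an unadjusted p under 0.05, 8 members were lower and 0 higher, beside 3.01% and 5.04% of all loci. In 0 members did the groups separate, beside 2.1% of all loci lower and 3.88% higher in this way. This too depended on HET PBS replicate 3, without which the median was -0.19 and 0 members were lower at an unadjusted p under 0.05, beside 1.12% of all loci. That count was 17 without HET PBS replicate 1 (9.13% of all loci), 21 without replicate 2 (1.75%) and 26 without KO antimiR-21 replicate 4 (11.1%). It was 1 without KO antimiR-21 replicate 1 (1.1%) or 2 (1.43%) and 5 without KO PBS replicate 1 (3.05%) or 2 (2.88%). Ect2 had the smallest p among the members in this comparison (-0.77, SE 0.262, edgeR adjusted p = 0.553).

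Within the groups the members ran together by library. A score of each library, the mean log2 CPM of the 43 loci minus the HET PBS mean, was -0.29, -0.36 and 0.65 in HET PBS, 0.39, 0.31, 0.72 and 0.22 in KO PBS and -1.09, -0.83, -0.31 and -0.05 in KO antimiR-21. The group means were 0.408 ± 0.220 (SD, n = 4) in KO PBS and -0.568 ± 0.477 (SD, n = 4) in KO antimiR-21, against an SD of 0.564 in HET PBS (n = 3). KO antimiR-21 replicates 1 and 2 were both below replicates 3 and 4 in 34 of 43 loci. Replicates 1 and 2 each lay below every KO PBS library in 41 loci, replicate 3 in 40 and replicate 4 in 29. These counts by replicate were not taken over all loci.

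Genes of the circadian clock also differed between libraries. Per2 and Per3, which repress the clock, and Tef, Hlf and Bhlhe41, which are outputs of it, peak in the opposite phase to Arntl, Npas2 and Nfil3. An index was taken as the mean log2 CPM of the former minus that of the latter. These genes were chosen after their values were seen. The index was 4.23, 5.27 and 1.55 in HET PBS, 1.73, 1.39, 1.38 and 1.23 in KO PBS and 5.14, 5.05, 2.18 and 4.78 in KO antimiR-21. All 4 KO PBS libraries and HET PBS replicate 3 thus had a low index and a score above 0. Within HET PBS the order of the index was the reverse of that of the score. Within KO antimiR-21 it was the reverse but for replicates 3 and 4, and replicate 4, with the highest score of its group, had an index of 4.78. Within KO PBS, where the index ran from 1.23 to 1.73, it was neither the order of the score nor its reverse. KO antimiR-21 replicate 3 had an index of 2.18, above all KO PBS libraries and below the rest of its group, and lay below every KO PBS library in 40 of 43 loci. Wee1, a clock-controlled gene that encodes the inhibitory kinase of Cdk1 and is named here after its values were seen, stood at 35.7, 38.5 and 24.1 CPM in HET PBS, 25.6, 23.1, 21.3 and 18.8 CPM in KO PBS and 38.6, 39.1, 19.4 and 39.2 CPM in KO antimiR-21. It was low in the libraries with a low index, KO antimiR-21 replicate 3 among them (KO antimiR-21 against KO PBS, log2 difference 0.62, SE 0.222, edgeR adjusted p = 0.492). With the index as a term beside the groups, a fit added after the data were seen, the median member difference between KO antimiR-21 and KO PBS was -0.28, with 41 of 43 negative and 0 lower at an unadjusted p under 0.05, beside 0.466% of all loci. The median SE was 0.394 in that fit and 0.330 without the term. Between KO PBS and HET PBS the median was -0.08 with the term. The labels give no hour of collection. All KO PBS libraries had an index of 1.73 or less and 3 of 4 KO antimiR-21 libraries one of 4.78 or more, and in these the index and the treatment cannot be told apart.

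**Figure D4:**
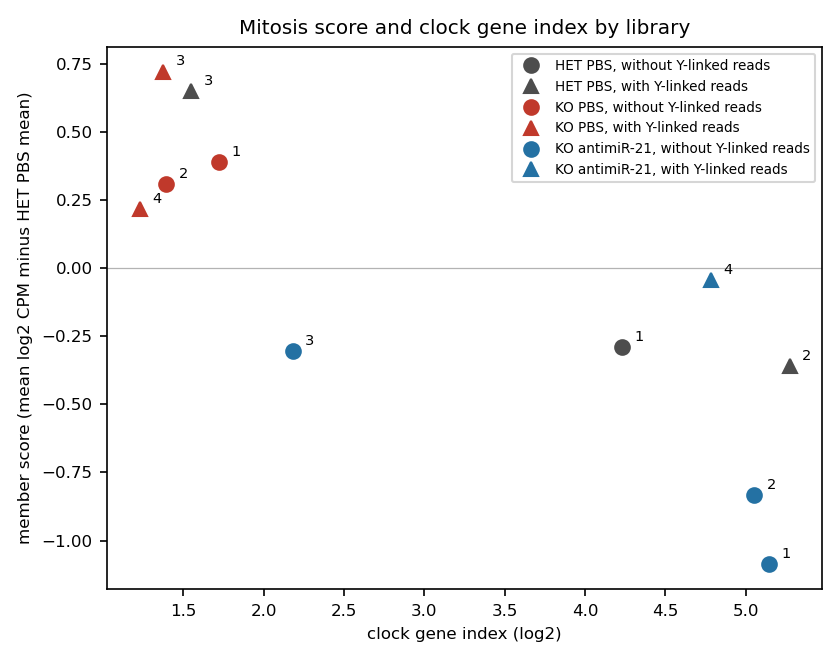
Mitosis score (mean log2 CPM of the 43 member loci minus the HET PBS mean, vertical axis) against the clock gene index (log2, horizontal axis) of the 11 libraries, numbered by replicate, with triangles for libraries with Y-linked reads. The 4 KO PBS libraries and HET PBS replicate 3 lie at an index from 1.23 to 1.73 with scores above 0, and KO antimiR-21 replicate 3 lies at 2.18 with a score of -0.31.

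Libraries also differed by reads of the Y chromosome, which 5 of 11 held (HET PBS replicates 2 and 3, KO PBS replicates 3 and 4, KO antimiR-21 replicate 4). With this status as a term beside the groups, 40 of 43 loci were higher in libraries with such reads (median 0.46). Of these 3 passed at an adjusted p under 0.05 by edgeR, beside 11.1% of all loci called higher, namely Nek2 (log2 difference 0.70, adjusted p = 0.0135), Cdc20/Elovl1 (0.25, adjusted p = 0.0311) and Birc5 (0.78, adjusted p = 0.0463). None was called lower, beside 6.85%. At an unadjusted p under 0.05, 12 members were higher and 2 lower (Spc25 and Aurka/Fam210b), beside 17.9% and 15.4% of all loci. Of the members 6.98% were thus called higher, below the share of all loci, and 27.9% were higher at an unadjusted p under 0.05, above it. The count of members called higher rested on single libraries. It was 0 without HET PBS replicate 1 (beside 5.82% of all loci) or KO antimiR-21 replicate 4 (6.8%). It was 1 (2.33% of members) without KO PBS replicate 1 (beside 8.58% of all loci) or 3 (7.64%) or KO antimiR-21 replicate 1 (9.21%) or 2 (9.36%). It was 2 without KO antimiR-21 replicate 3 (4.65% of members, beside 11.1% of all loci) and 5 without KO PBS replicate 2 (11.6%, beside 15.4%). It was 7 without HET PBS replicate 2 (16.3%, beside 9.35%) and 9 without KO PBS replicate 4 (20.9%, beside 12.9%). Without HET PBS replicate 3 it was 1 higher (2.33%, beside 9.62%), and 2 were called lower (4.65%, beside 5.79%). With the status as a term the median member difference between KO antimiR-21 and KO PBS was -0.96 (-1.06 without the term). In that fit 37 members were lower at an unadjusted p under 0.05 (edgeR), beside 4.85% of all loci. Against HET PBS the median was -0.42 for KO antimiR-21 (-0.64 without the term) and 0.49 for KO PBS (0.40). Among the libraries with Y-linked reads the median difference between KO antimiR-21 (n = 1) and KO PBS (n = 2) was -0.58, and among those without it was -1.17 (n = 3 and 2). A test of whether the treatment difference itself depends on the status called 0 members (edgeR, lowest member adjusted p = 0.380), with 1 higher at an unadjusted p under 0.05, where 5.84% of all loci were higher and 6.81% lower.

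Markers of other cells were read beside the members, and their part in the differences was not tested. Macrophage and monocyte loci (12 of 14 tested) summed to 362 to 476 CPM in KO PBS, 367 to 422 in KO antimiR-21 and 296 to 355 in HET PBS. Tubular injury genes (10 of 10) summed to 1858 to 7559 CPM in KO PBS, 2485 to 3184 in KO antimiR-21 and 1049 to 2407 in HET PBS. By replicate the sums of these injury genes were 2407, 1049 and 1628 CPM in HET PBS, 7559, 4182, 1858 and 2441 in KO PBS and 2587, 3184, 3046 and 2485 in KO antimiR-21. Their relation to the mitosis score was not tested. Fibroblast and pericyte loci (9 of 9) summed to 736 to 1421 CPM in KO PBS, 679 to 1062 in KO antimiR-21 and 439 to 690 in HET PBS. T and B cell loci (8 of 12) summed to 4.42 to 9.82 CPM over all libraries. The 37 members on their own loci summed to 661 to 841 CPM in KO PBS, 358 to 570 in KO antimiR-21 and 483.9 to 812.5 in HET PBS. Sums of different genes do not measure numbers of cells. Endothelial loci (8 of 8) summed to 774 to 854 CPM in KO PBS, 786 to 966 in KO antimiR-21 and 654 to 1006 in HET PBS. Erythroid and bone marrow loci (6 of 12) summed to 89.1 to 102.5 CPM in KO PBS 98.7 to 110.3 in KO antimiR-21 and 111.8 to 135.4 in HET PBS, above every knockout library. Proximal tubule loci (9 of 10) summed to 12910 to 14600 CPM in KO PBS, 14280 to 17110 in KO antimiR-21 and 16130 to 17930 in HET PBS. All 9 had a negative difference between KO PBS and HET PBS (median -0.26, 4 without overlap, beside 3.21% of all loci lower in this way). Between KO antimiR-21 and KO PBS 6 of 9 had a positive one (median 0.24).

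Of the adrenal and fat markers 5 of 8 loci were tested, and they summed to 107.3 to 135.2 CPM in KO PBS, 110.9 to 164.4 in KO antimiR-21 and 113.4 to 123.3 in HET PBS. All 5 had a positive difference between KO antimiR-21 and KO PBS (median 1.07) and against HET PBS (median 2.78), with 0 called by edgeR. Most of the sum came from the joint locus Ash2l/Star and from Fabp4, with differences of 0.01 and 0.19 between the knockout groups. The fat genes Adipoq, Plin1 and Cidec were uneven between libraries. Adipoq, which encodes the fat hormone adiponectin, stood at 0.0429, 0.165 and 0.0 CPM in HET PBS, 0.230, 0.0, 0.0441 and 0.932 CPM in KO PBS and 4.37, 1.05, 0.0491 and 0.0 CPM in KO antimiR-21. All of them were highest in KO antimiR-21 replicate 1, with KO antimiR-21 replicate 2 and KO PBS replicate 4 next. In KO antimiR-21 replicates 3 and 4 they were at 0.0535 CPM or less. Of the adrenal genes Cyp11b1 had a count of 0 in all 11 libraries together, Cyp21a1 5.5 and Cyp11a1 29.5.

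Other genes of mitosis, taken from a list that is not the members, ran the same way with a smaller median. Of 95 loci 84 had a negative difference between KO antimiR-21 and KO PBS (median -0.37), with 42 lower and 1 higher at an unadjusted p under 0.05 and 23 that did not overlap. Over all loci tested 1.95% were lower without overlap, and 3.46% were lower and 4.76% higher at an unadjusted p under 0.05. By part of the machinery, 9 of 33 kinetochore and centromere loci were lower by that count (median -0.30), 18 of 31 spindle, centrosome and cytokinesis loci (median -0.76), 9 of 11 condensin, cohesion and separation loci (median -0.61) and 6 of 20 loci of mitotic control (median -0.13). Arhgap11a, a RhoA regulator of cytokinesis, stood at 23.2, 20.3, 24.4 and 18.2 CPM in KO PBS and 10.8, 12.6, 14.3 and 13.5 CPM in KO antimiR-21, without overlap (log2 difference -0.75, SE 0.163, edgeR adjusted p = 0.313). Sgol2 and Sgol1, the shugoshins that guard centromeric cohesion, had -1.29 and -1.27, Fam83d, a spindle protein, had -1.37, the condensin subunit Ncaph had -0.93, sororin (Cdca5) had -1.04 and Ccnf, which encodes cyclin F, had -1.06. Fzr1, the activator of the anaphase promoting complex in G1, stood at 42.4, 45.2, 42.4 and 42.9 CPM in KO PBS and 33.8, 35.6, 37.6 and 38.9 CPM in KO antimiR-21 (log2 difference -0.24, SE 0.0706, edgeR adjusted p = 0.367).

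Genes of the preceding S phase differed less. Of 38 DNA replication loci 30 had a negative difference (median -0.19). At an unadjusted p under 0.05, 3 were lower, beside 3.46% of all loci. In 0 were the knockout groups separate, beside 1.95% of all loci lower and 2.34% higher in this way. Tyms, which encodes thymidylate synthase, had -0.49 (SE 0.192, edgeR adjusted p = 0.531). Mcm6, a subunit of the replicative helicase, had -0.74 (SE 0.296, edgeR adjusted p = 0.539). The difference between the lists was not tested. Of 19 loci of D cyclins and growth arrest 4 were lower and 2 higher at an unadjusted p under 0.05 (median 0.02), beside 3.46% and 4.76% of all loci. Among them Sesn2, which encodes the stress-induced sestrin 2, stood at 0.46 and Cdk6, a G1 kinase, at -0.39.

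Since the members ran together, their promoters were read for the elements named above. RefSeq promoter entries (250 bases before to 50 after the start, GRCm38.p6) were found for 38 members. The CHR, searched as TTTGAA on both strands, was in 28 of them (73.7%) and in 4865 of the 26987 other genes with an entry (18%). The CCAAT box, CCAAT on both strands, was in 29 (76.3%) and 37.9%, and both motifs together in 24 (63.2%) and 7.04%. Within 65 bases before to 30 after the start, the CHR was in 20 members (52.6%) and 5.03% of the others. The E-box of clock factors, CACGTG, was in 2 members (5.26%), Anln and Ttk, and 7.24% of the others. Within 65 bases before to 30 after the start it was in the same 2 members (5.26%) and 3.16% of the others. Among 9771 other genes of tested loci, the CHR was in 11.7%, the CCAAT box in 38.2% and both in 4.73%. The E-box was in 9.89% of these. In the shorter stretch around the start, 2.83% of them held the CHR and 4.45% the E-box. A match describes these letters and is not a bound site. The promoters of the 5 members with the smallest p in KO antimiR-21 against KO PBS among those with an entry that can be shown and a locus of their own are given, 5′ to 3′ on the strand of the gene, with each CHR (TTTGAA) and CCAAT box (CCAAT or ATTGG) in capitals. All 5 hold both motifs, and in each a CHR begins between 5 and 40 bases past the start. Both motifs were also in Aurka, Cdc20 and Kif4, whose counts are shared with a neighbouring gene, and in Spc25 and Kif23. The loci of these genes were not lower at an unadjusted p under 0.05 (edgeR). Cenpe, likewise not lower, held a CCAAT box and no CHR. Ccnb1, Bub1, Nek2, Birc5, Nuf2 and Melk were among the members that were lower by that count and held no CHR. Whether the motifs go with the size of the difference was not tested.
Cdca3, chr6:124829926-124830225 (plus strand): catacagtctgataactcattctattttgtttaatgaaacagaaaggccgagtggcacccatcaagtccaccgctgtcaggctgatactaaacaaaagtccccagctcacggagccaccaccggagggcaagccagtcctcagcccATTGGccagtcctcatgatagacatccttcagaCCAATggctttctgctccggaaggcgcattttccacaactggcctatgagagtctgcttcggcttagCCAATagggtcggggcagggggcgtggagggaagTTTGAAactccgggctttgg
Ccnb2, chr9:70421505-70421804 (minus strand): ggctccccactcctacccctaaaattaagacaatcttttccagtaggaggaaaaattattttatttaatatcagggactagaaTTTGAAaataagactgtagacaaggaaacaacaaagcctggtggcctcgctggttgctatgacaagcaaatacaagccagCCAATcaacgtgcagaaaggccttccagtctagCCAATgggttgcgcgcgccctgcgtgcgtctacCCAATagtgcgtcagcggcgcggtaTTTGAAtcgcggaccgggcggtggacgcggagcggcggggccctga
Ect2, chr3:27153829-27154128 (minus strand): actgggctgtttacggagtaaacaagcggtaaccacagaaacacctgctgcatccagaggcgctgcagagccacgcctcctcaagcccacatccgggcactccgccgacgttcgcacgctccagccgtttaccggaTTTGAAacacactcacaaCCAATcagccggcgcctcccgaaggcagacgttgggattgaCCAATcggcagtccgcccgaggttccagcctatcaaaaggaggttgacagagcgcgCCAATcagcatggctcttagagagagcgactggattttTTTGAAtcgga
Cenpa, chr5:30666636-30666935 (plus strand): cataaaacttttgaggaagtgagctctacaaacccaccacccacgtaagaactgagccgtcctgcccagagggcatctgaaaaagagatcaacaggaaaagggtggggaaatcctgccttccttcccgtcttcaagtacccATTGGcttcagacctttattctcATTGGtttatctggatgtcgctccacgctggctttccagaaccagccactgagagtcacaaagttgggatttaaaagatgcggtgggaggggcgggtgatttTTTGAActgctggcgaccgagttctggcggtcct
Racgap1, chr15:99651607-99651906 (minus strand): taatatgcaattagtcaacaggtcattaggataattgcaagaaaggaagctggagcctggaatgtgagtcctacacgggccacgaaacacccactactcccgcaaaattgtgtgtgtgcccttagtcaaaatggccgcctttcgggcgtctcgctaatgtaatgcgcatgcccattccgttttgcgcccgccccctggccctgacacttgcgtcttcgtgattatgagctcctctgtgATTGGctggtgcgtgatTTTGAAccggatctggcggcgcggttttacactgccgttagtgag

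**Figure D5:**
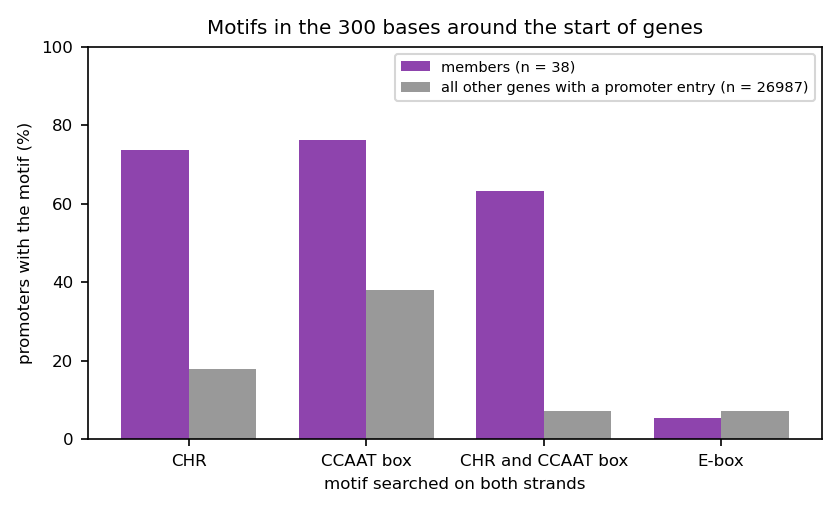
Percent of promoters (300 bases) that hold each motif, for the 38 members with a RefSeq entry and for the 26987 other genes. The CHR was in 73.7% and 18%, the CCAAT box in 76.3% and 37.9%, both in 63.2% and 7.04%, and the E-box in 5.26% and 7.24%.

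The treatment is directed at miR-21, whose main mature form in the mouse is miR-21a-5p (RefSeq, GRCm38.p6, chr11:86584120-86584141, minus strand). Its seed, bases 2 to 8, is in capitals.
mmu-miR-21a-5p: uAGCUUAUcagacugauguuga
A microRNA represses transcripts that carry the complement of its seed, so loss of miR-21 acts directly toward more of its targets. The matching site, ATAAGCT, was in the longest annotated 3′ untranslated region (GENCODE vM21) of 1 of 37 members on their own locus (2.7%), and of 854 of 9747 other tested single-gene loci (8.76%). These regions had a median length of 818 bases in the members and 1392 in the others. The member was Ndc80, with the site (in capitals) at chr17:71512285-71512304 on the minus strand, 2526 bases into a region of 3575.
Ndc80 site: ggctaacaaATAAGCTctta
Ndc80 was lower in KO antimiR-21, as given above, and did not pass the adjusted test.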

How the data were processed

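Whole kidney RNA of 11 samples (3 HET PBS, 4 KO PBS, 4 KO antimiR-21) (150 ng) was sequenced after TruSeq v2 preparation, an unstranded kit, per the labels' protocols. STAR, HTSeq 0.5.4p5, SAMtools, FastQC, limma and the build mm10 are listed in the submitters' processing notes. For the annotation and the counting, settings were not given in those sources. The authors deposited estimated counts per gene, not normalized, in steps of 0.5, per the file headers and the values (22.4 to 49.7 M per library). They also deposited a matrix of log2 values of the whole series, used as an alternative only.

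Rows with the same count in all libraries and a total of at least 50 were joined (1513 loci), a step taken after the files were seen. Counts were rounded, and the test was edgeR 4.0.16 (R 4.3.3, TMM factors 0.917 to 1.08, filterByExpr, robust quasi-likelihood fit to all 11 libraries with 3 groups, two-sided, Benjamini-Hochberg over 14380 loci, threshold 0.05). The biological coefficient of variation was 0.215. The SE of a log2 difference was taken as its absolute value divided by the square root of the F statistic of that test. On simulated counts for KO antimiR-21 against KO PBS over 14380 loci the fit recovered 71% of loci changed 2-fold and 96.3% of those changed 4-fold. The changed loci were drawn from those with a mean of at least 1 CPM. Each locus was simulated independently, without the differences in clock genes and Y-linked reads between libraries. These shares check the fit and do not give its power in the real libraries. CPM use TMM-scaled library sizes, and the member score uses a prior count of 2. DESeq2 1.42.0 and limma 3.58.1 were alternatives. Y-linked reads were called from Ddx3y, Eif2s3y, Kdm5d and Uty (mean log2 CPM above 1).

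Members and lists were chosen with earlier results of these data known. Named loci (22) were Mki67, Top2a, Cdk1, Ccnb1 and Foxm1, and, in each role, the most abundant member and those with the 2 smallest p in KO antimiR-21 against KO PBS, with the member of smallest p in each other comparison and any past the threshold in it. Nek2, called by Y-linked status, is given there by its difference. The clock index and Wee1 were chosen after their values were seen. Promoter and microRNA sequences are from RefSeq (GRCm38.p6), and exons and untranslated regions from GENCODE vM21.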

Additional observations from a re-analysis of the deposited data

Results flagged for a closer look

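The highest or lowest library stood apart from the other 3 by more than Dixon's 95% critical value in 7 of 72 groups of 4. The groups were the KO PBS and KO antimiR-21 values of the 22 named members, 13 other loci named in the text and the mitosis score. Chance flags about 1 in 20 independent groups. The members ran together by library, so these groups are not independent and the rate does not apply to them directly. KO PBS replicate 3 was the highest of its group in 38 of 43 member loci. KO PBS replicate 3 stood apart at the high end for Ccnb1 (12.69 CPM, others 7.214 to 7.686), Birc5 (12.47 CPM, others 8.078 to 8.417) and Hmmr (21.15 CPM, others 13.39 to 13.43). KO antimiR-21 replicate 4 stood apart at the high end for Kif4/Pdzd11 (54.91 CPM, others 40.84 to 41.98) and Mcm6 (43.88 CPM, others 27.33 to 29.17). KO PBS replicate 4 was low for Tyms (14.28 CPM, others 19.24 to 19.83). KO antimiR-21 replicate 3 was low for Wee1 (19.39 CPM, others 38.59 to 39.17).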

How the results depend on the processing

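The alternatives were DESeq2 size factors in edgeR, DESeq2, limma-voom, limma on the deposited log2 matrix, no filter, a mean of at least 1 CPM, rows as deposited, Y-linked status as a term, the replicate block, the 2 compared groups alone, each library left out, and 2 added after the data were seen (the clock index as a term, and loci of 1 gene only). Between KO antimiR-21 and KO PBS, DESeq2 called 12 members lower, beside 0.327% of all loci. With the clock index 0 were lower at an unadjusted p under 0.05 (edgeR, median -0.28), beside 0.466% of all loci. With a library left out 30 to 40 were lower by that count (medians -1.31 to -0.85), beside 1.83% to 8.48% of all loci. Between KO PBS and HET PBS the members higher at an unadjusted p under 0.05 (main count 1, 2.33% of members beside 4.21% of all loci) were 2 with limma-voom (4.65%, beside 4.91%) and 3 with Y-linked status (6.98%, beside 5.23%). They were 0 with the clock index (beside 3.17% of all loci) and 0 with loci of 1 gene only (beside 4.91%). With a library left out they were 0 to 30, beside 2.28% to 7.53% of all loci. The median there was -0.0758 with the clock index and 0.18 to 0.86 with a library left out. Between KO antimiR-21 and HET PBS the members lower at an unadjusted p under 0.05 (main 8, 18.6% of members beside 3.01% of all loci) were 14 with DESeq2 (32.6%, beside 3.76%) and 4 with limma-voom (9.3%, beside 2.87%). They were 2 with Y-linked status (4.65%, beside 2.56%), 1 with the 2 groups alone (2.33%, beside 2.49%) and 3 with the clock index (6.98%, beside 2.25%). With a library left out they were 0 to 26 (medians -0.89 to -0.19), beside 1.1% to 11.1% of all loci. Members called by Y-linked status (main 3) were 6 with DESeq2 (14.0% of members, beside 12.5% of all loci called higher) and 2 with limma-voom (4.65%, beside 10.9%). With a library left out they were 0 to 9, with the shares given above. The cause of these changes was not tested.

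Correlations of deviations between samples with the same replicate number ran from -0.44 to 0.63 over 10 pairs. For different numbers they ran from -0.72 to 0.63, with a median of -0.16. The numbers were not taken to pair samples, and whether they do was not tested. Between KO antimiR-21 and KO PBS a block of replicate number left 38 members lower at an unadjusted p under 0.05 (edgeR), beside 5.0% of all loci. It called 0 members (edgeR, lowest member adjusted p = 0.0571), beside 0.0556% of all loci called lower. With the replicate number as a block, 6 members were higher in KO PBS than in HET PBS and 27 lower in KO antimiR-21 than in HET PBS at an unadjusted p under 0.05 (edgeR), beside 5.9% and 8.03% of all loci, and Kif4/Pdzd11 stood at -0.0013 between KO PBS and HET PBS.

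Signs reversed as follows. For Cdc20/Elovl1 between KO PBS and HET PBS (main -0.0017) they were 0.0035 with DESeq2 size factors, 0.0035 with DESeq2, 0.0039 with limma-voom, 0.0136 on the log2 matrix, 0.0082 with no filter, 0.0115 at 1 CPM, 0.0083 with rows as deposited, 0.0479 with Y-linked status and 0.0186 with the 2 groups alone. Spc25 had -0.0409 there with Y-linked status. For Kif23 between KO antimiR-21 and HET PBS (main -0.0013) they were 0.0013 on the log2 matrix, 0.00028 with no filter, 0.011 at 1 CPM, 0.0065 with rows as deposited, 0.00053 with the 2 groups alone and 0.0175 with the clock index. With the clock index between KO PBS and HET PBS (main differences up to 0.47, for Ccnb1), Top2a had -0.139, Ccnb1 -0.170, Ccna2/Exosc9 -0.0664, Bub1b -0.176, Ube2c -0.0906, Spc25 -0.182, Cdca8 -0.102, Birc5 -0.0158, Kif4/Pdzd11 -0.0574, Hmmr -0.118, Tpx2 -0.0231 and Ect2 -0.0758, and Spc25 had 0.108 between KO antimiR-21 and KO PBS. With a library left out, differences between KO PBS and HET PBS ran from -0.0422 to 0.309 for Ccna2/Exosc9, -0.0906 to 0.114 for Cdc20/Elovl1, -0.155 to 0.129 for Spc25, -0.0956 to 0.181 for Kif4/Pdzd11 and -0.0362 to 0.338 for Ect2. They ran from -0.261 to 0.0152 for Spc25 in KO antimiR-21 against KO PBS. Against HET PBS they ran from -0.669 to 0.0365 for Cdca8 and -0.0516 to 0.0387 for Kif23.

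The other values kept their direction and their side of the threshold in 1448 of the named comparisons and settings, and 9 passed with DESeq2, all named members between KO antimiR-21 and KO PBS. The mitosis score moved by less than the spread between replicates with a prior count of 0.5. A mean of at least 1 CPM removed no member. Members of few CPM, such as Cdc25c, carry the widest counting error.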
